A study of Mus musculus with 12 samples.

Results

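Wnt signalling was described in HT22 cells, an immortalized line of mouse hippocampal neurons, through 56 genes of 25239 in the expression table. The genes were taken by symbol. Every Wnt ligand (Wnt), Frizzled receptor (Fzd), R-spondin (Rspo), secreted frizzled-related protein (Sfrp) and Dickkopf (Dkk) symbol in the table was included. Frzb, a secreted frizzled-related protein without an Sfrp symbol, was counted with other pathway genes. The rest were Lrp5 and Lrp6 (co-receptors), Lgr4, Lgr5 and Lgr6 (receptors), Apc, Axin1, Axin2, Gsk3b and Ctnnb1. The factors Tcf7, Tcf7l1, Tcf7l2 and Lef1 were also included. The pattern also took in Fzd10os, an antisense transcript listed at 0. Of 2643 m6A peaks in the deposited comparison of conditions, 5 lay on these genes, 1 each on Fzd3, Fzd5, Fzd7, Lgr4 and Tcf7l2.

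The cells were wild type and were either left untreated or exposed to mesaconitine (MA), a diterpenoid alkaloid of Aconitum plants, at 800 μM for 72 h. Each condition had 3 libraries of input RNA and 3 libraries of RNA immunoprecipitated with an anti-m6A antibody (IP), 12 libraries in all, and the labels do not say whether the replicates were separate cultures. The deposited tables pool the replicates. A gene therefore has 1 base mean over all compared libraries, and a peak has 1 read count in each of the 4 groups, so replicate error is unknown and no test of the conditions was possible. Intervals given below cover counting error only. The study chose this dose after viability assays, in which it lowered viability, and a change in the mix of surviving cells cannot be told apart from a change within each cell.

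Wnt proteins are secreted lipid-modified ligands that bind Frizzled receptors together with the co-receptors Lrp5 or Lrp6. In the absence of a ligand, a destruction complex of Apc, Axin and Gsk3b marks beta-catenin (Ctnnb1) for degradation, and binding of a ligand stops this, so that beta-catenin reaches the nucleus and acts with TCF/LEF factors. In the hippocampus the pathway is known for its roles in the formation of the region and in adult neurogenesis. m6A is a methyl mark on adenosine inside mRNA, which is placed within the motif family RRACH (R is A or G, and H is A, C or T) and affects the stability and translation of the transcript.

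The neuronal identity of the line was checked with its base means, that is, the mean count per gene after scaling for library size. Among 11 neuronal markers, 6 were listed at 0, including Map2, Snap25 and Stmn2, and 2 were above 0 but under 10. Tubb3, Syn1 and Dlg4 had base means of 473, 710 and 4073. All 6 fibroblast or mesenchymal markers were present, with base means between 1573 for Pdgfrb and 134804 for Col3a1. Thy1, 1 of these with 3884, also marks neurons. Of 4 neural progenitor markers, Sox2 and Pax6 were listed at 0, Nes had 121 and Vim had 110058. A base mean of 10 was reached by 1 of 4 astrocyte, 1 of 4 oligodendrocyte, 2 of 5 microglia and none of 3 endothelial markers. The label of a neuron was therefore not borne out by most of its defining markers. The part of this in the Wnt values was not tested.

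The peaks are shown first by their sequence, since these are the places where a change of m6A on Wnt transcripts could be read here. Each is written 5′ to 3′ on the transcribed strand, from mm10, with RRACH matches in capitals. For the peaks in untranslated regions a stretch of at most 30 bases is shown, around a match or, where the peak had none, at its centre.

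Fzd3, first match, chr14:65194278-65194306, minus strand: gaggattgccagGAACTgacggccaggct
Fzd3, second match, chr14:65194248-65194276, minus strand: agctacataacaAGACCctgttttcaaaa
Fzd5, centre, chr1:64734656-64734685, minus strand: ttacctgtccccagtcttctacagggggct
Fzd7, coding part of the peak, chr1:59482960-59483146, plus strand: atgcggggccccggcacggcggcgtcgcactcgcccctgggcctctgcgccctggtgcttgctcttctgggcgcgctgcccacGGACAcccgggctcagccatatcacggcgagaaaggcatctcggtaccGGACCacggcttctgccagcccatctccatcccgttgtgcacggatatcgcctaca
Lgr4, only match, chr2:109917792-109917820, plus strand: ggaggaggcccgGGACAggaggcggcggc
Tcf7l2, centre, chr19:55931890-55931919, plus strand: attgaagtgtttccttctggttcttggttc

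The Fzd7 stretch opens with the start codon of the only exon of that gene, and both of its matches lie in the coding sequence. The Fzd3, Fzd7 and Lgr4 peaks held 2, 2 and 1 matches to RRACH. The Fzd5 and Tcf7l2 peaks held none, nor did they hold a match when the first base was allowed to be A, G or T (DRACH). The search read the transcribed strand only and only the bases inside each peak, so a match just outside a peak was not looked for. RRACH occurred in 47.9% of the 908 peaks that had the 50 bases of the Tcf7l2 peak, in 63.5% of the 395 peaks of 75 bases, the length of the Fzd3 and Fzd5 peaks, in 83.9% of the 62 peaks of 150 bases and in 95.8% of the 24 peaks of 200 bases.

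The peaks lay in different parts of their transcripts. In Lgr4 the peak (chr2:109917722-109917871) was in the 5′ untranslated region, in exon 1 of 18, with its midpoint 325 bases before the first coding base. The Fzd7 peak (chr1:59482947-59483146) spanned the start codon, and 187 of its 200 bases were coding. The Fzd3, Fzd5 and Tcf7l2 peaks were in 3′ untranslated regions. In Tcf7l2 the midpoint of the peak (chr19:55931880-55931929) was 50 bases beyond the end of the coding sequence, in exon 14 of 14 of the transcript used. Of 12 coding transcripts of the gene, 10 contain the peak, all 10 in the 3′ untranslated region. The Fzd5 peak (chr1:64734633-64734707) was 176 bases beyond the coding end, and the Fzd3 peak (chr14:65194241-65194315) was 8444 bases beyond it. No other annotated gene had an exon over any of the 5 peaks on either strand. Of the 171 stretches of 30 bases in the Fzd7 peak, 7 also occur in transcripts of another gene, so a small part of its reads could be shared. None do for the other peaks. The search covered exact matches in annotated transcripts only, so it cannot show that reads of any peak are unique to its gene.

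**Figure D1:**
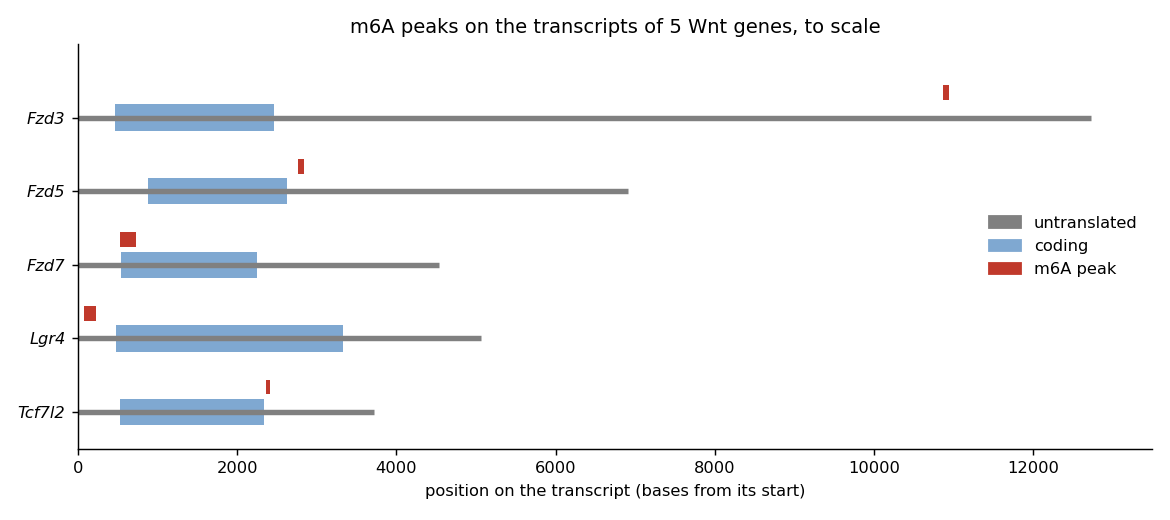
Positions of the 5 peaks on 1 coding transcript of each gene, with the horizontal axis in bases from the transcript start; grey lines are untranslated sequence, blue boxes coding sequence and red boxes peaks. The Lgr4 and Fzd7 peaks lie at the start of their transcripts, the Tcf7l2 and Fzd5 peaks lie just past the coding end, and the Fzd3 peak lies 8444 bases past it.

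The first question the tables can answer is which parts of the pathway these cells expressed. A base mean of 10 was reached by 7 of 10 Frizzled receptors, 1 of 2 LRP co-receptors, 1 of 3 LGR receptors, 3 of 4 genes of the destruction complex, Ctnnb1 and all 4 TCF/LEF factors. It was reached by 4 of 19 ligands and by none of the 8 secreted inhibitors and 4 R-spondins. Of the 56 genes, 20 (35.7%) were listed at 0, 15 had a base mean above 0 and under 10, and 21 reached 10. Over all genes of the table, 35.9% were listed at 0, and 50.7% had a base mean under 10, against 62.5% of the Wnt genes. Levels of different genes were compared per kb of exons. By that scale, 11 Wnt genes (19.6%) were at or above 132.5 per kb, the median of the genes above 0, and 31.2% of all genes were.

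Among the 19 Wnt ligands, 12 were listed at 0: Wnt1, Wnt2, Wnt3, Wnt3a, Wnt4, Wnt5b, Wnt6, Wnt7b, Wnt8a, Wnt9b, Wnt10a and Wnt16. Wnt5a, best known as a ligand of beta-catenin-independent signalling, was the highest ligand, with a base mean of 595 or 76.1 per kb. Wnt9a followed with 182 or 54.6 per kb, and Wnt10b with 63.4 or 18.7 per kb. Wnt2b had a base mean of 53.0, and the remaining 3 ligands, Wnt7a, Wnt8b and Wnt11, lay between 0.646 and 3.12. No ligand reached the median level per kb of the genes above 0.

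R-spondins are secreted proteins that strengthen Wnt signalling by protecting Frizzled receptors from turnover. Of the 4, Rspo1 had a base mean of 3.19, and Rspo2, Rspo3 and Rspo4 were listed at 0. Their receptor Lgr4, in contrast, had a base mean of 1381, or 235 per kb, at percentile 60.2 of the genes above 0. Lgr6 had a base mean of 0.676, and Lgr5, a marker of several adult stem cells, was listed at 0.

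All 10 Frizzled receptors had a base mean above 0, and 7 of them were at 331 or more. Fzd7 was the highest on both scales, with a base mean of 2856 and 630 per kb, at percentile 80.1 of the genes above 0. Fzd2, Fzd1 and Fzd4 came next with 253, 191 and 143 per kb, and Fzd5, Fzd6 and Fzd3 with 84.9, 68.8 and 52.6 per kb. A gap followed, since Fzd9, Fzd10 and Fzd8 had base means of 7.67, 5.92 and 0.698. Without values of single libraries it cannot be said which neighbours in this order differ beyond their spread.

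The co-receptors differed by far more. Lrp6 had a base mean of 8717, or 638 per kb, while its close relative Lrp5, which can serve the same function, had 3.60, or 0.369 per kb.

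Of the 8 secreted inhibitors, none reached a base mean of 10. Among Dickkopf proteins, Dkk1, Dkk2 and Dkk4 bind the LRP co-receptors, and secreted frizzled-related proteins bind the ligands. Dkk3 was the highest with 5.76, Sfrp4 had 1.86, Dkk2, Sfrp1 and Dkk4 were under 1, and Dkk1, Sfrp2 and Sfrp5 were listed at 0.

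Inside the cell, Ctnnb1 was the most abundant of the 56 genes, with a base mean of 12589 and 2425 per kb, at percentile 95.8. The product of Ctnnb1 also links cadherins to actin at adherens junctions, so its level is not specific to Wnt signalling. In the destruction complex the scaffold Axin1 had 6427 or 1679 per kb, Apc had 8330 or 517 per kb and the kinase Gsk3b had 4210 or 428 per kb. Axin2, a second scaffold and a widely used target gene of beta-catenin, had a base mean of 1.22. Among the factors, Tcf7l1 was at 1464 or 373 per kb, Tcf7l2 at 1099 or 125 per kb, Lef1 at 163 or 18.6 per kb and Tcf7 at 13.9 or 5.30 per kb.

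**Figure D2:**
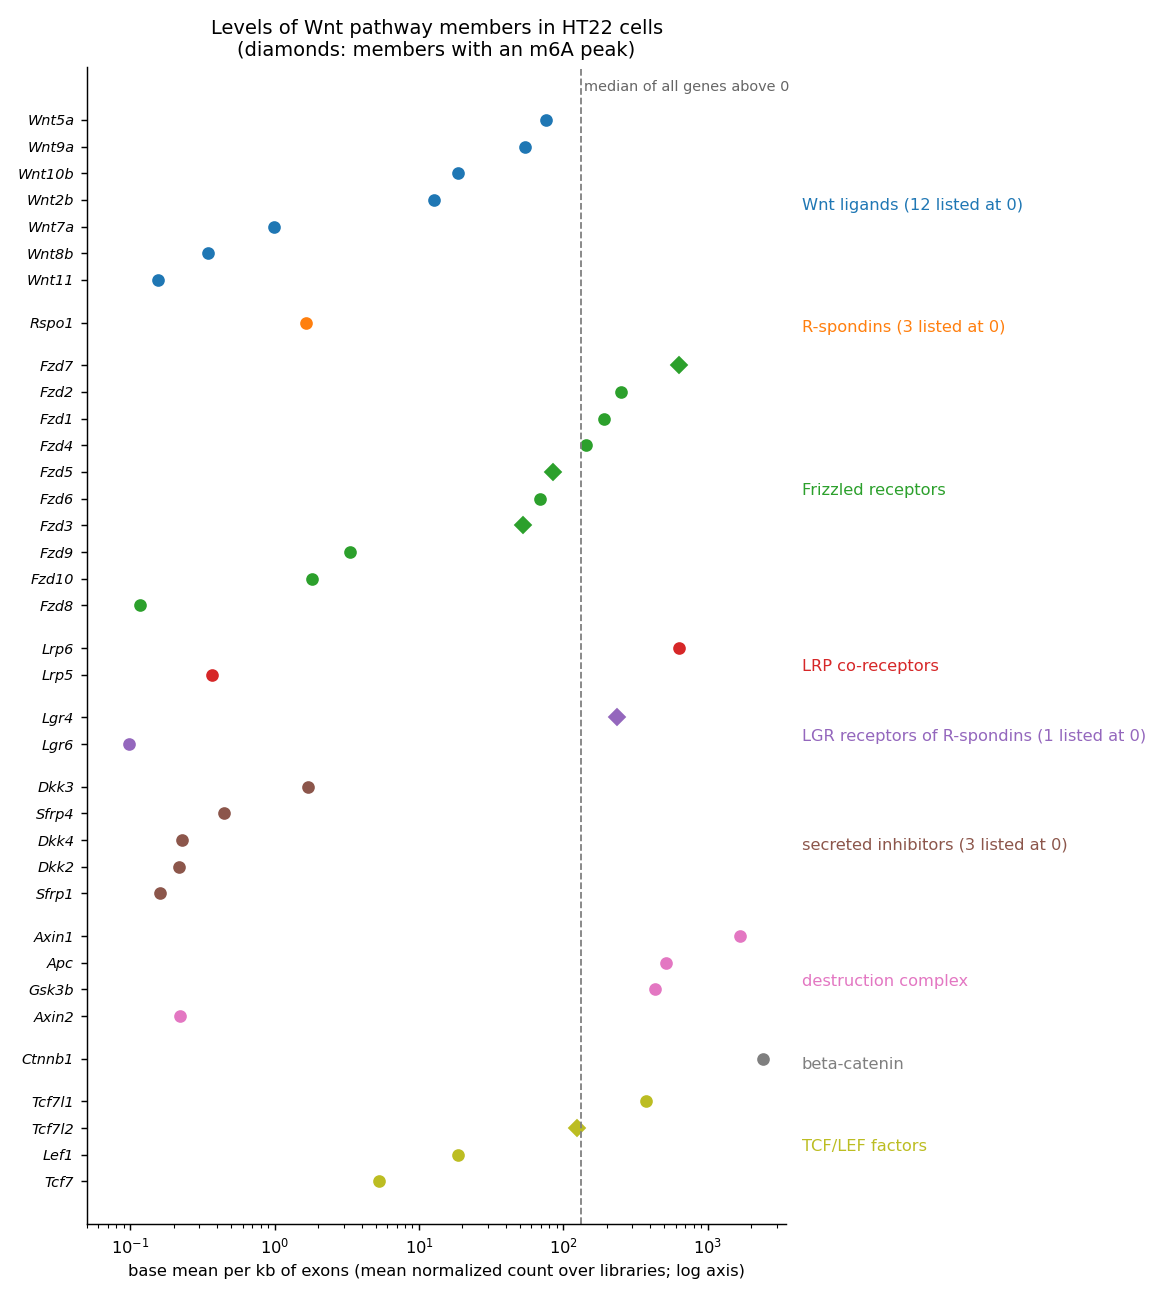
Base mean per kb of exons (log axis) of each Wnt gene above 0, grouped by role, with the number of genes listed at 0 beside the role; diamonds have an m6A peak, and the dashed line is the median of all genes above 0. Ctnnb1, Axin1, Lrp6 and Fzd7 lie highest at 2425, 1679, 638 and 630 per kb, and no ligand, R-spondin or secreted inhibitor reaches the median of 132.5 per kb.

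In a list of 61 other genes of the pathway, 47 had a base mean of 10 or more, as did 12435 of the 25239 genes of the table. By section, 2 of 5 genes of secretion and the extracellular space reached 10, 12 of 18 membrane genes, 15 of 18 cytoplasmic genes, all 10 nuclear genes and 8 of 10 commonly cited targets. Wls, which carries Wnt proteins to the cell surface, had a base mean of 15384, while the secreted antagonists Notum and Wif1 were listed at 0 and Frzb had 0.710. Of the membrane genes, the inhibitor Apcdd1 had 15056, and Ror2 and Gpc4 were listed at 0. The targets were spread widely. Jun, Birc5, Cd44 and Myc had base means of 14987, 6742, 5247 and 4626, Nrcam had a base mean under 10 and Sp5 was listed at 0. These targets also answer to other pathways. Apcdd1, given above with 15056, is among the inhibitors that Wnt signalling is known to induce. Of others in that group, Znrf3 had 795, Rnf43 had 0.968 and Nkd1 had 0.698. Base means are pooled over both conditions, so these are levels and not responses to MA. How the level of a gene without a peak differed between the conditions was not analysed here.

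The second question was whether m6A and transcript reads at the 5 peaks differed between MA and control. In the deposited comparison of conditions, 5 of the 56 Wnt genes (8.93%) had a peak, as did 9.01% of all genes of the table. These shares, and those that follow, count genes with a peak in that comparison and not all genes with m6A. Among genes with a base mean of at least 10 the shares were 23.8% and 16.5%, and from a base mean of 500 they were 33.3% of 15 Wnt genes and 18.5%. Ctnnb1, Lrp6, Apc, Axin1 and Gsk3b, which had the highest base means of the 56, had none of the 2643 peaks. The study reports a larger set of m6A peaks, on more genes, which was not used here. A Wnt gene without a peak here may therefore hold one in that set.

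IP reads and input reads stood in a different relation in each condition over the whole table. The median peak had 0.958 IP reads per input read in control and 1.84 after MA, and this ratio was higher after MA in 83.4% of all peaks. It was also higher in all 5 Wnt peaks. The columns are not scaled for library size, so each change is given relative to the median peak, whose ratio was 1.87-fold higher after MA and whose input reads were 0.724-fold those of control. A peak was counted as past the threshold at 1.5-fold from the median peak. By this rule 27.6% of all 2643 peaks were higher after MA in IP reads per input read and 25.7% were lower. For input reads the shares were 11.8% higher and 14.5% lower. This scaling removes any change shared by most peaks, which cannot be told apart from library depth. The shares therefore do not show whether m6A rose or fell in general. With its own scaling on background regions, the study reported more genes with increased than with weakened m6A.

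Tcf7l2, whose product is the main TCF partner of beta-catenin in many tissues, had the most reads of the 5 peaks. Its peak held 199 input and 151 IP reads in control, and 114 input and 254 IP reads after MA. Unscaled, IP reads were higher and input reads lower after MA. The IP reads per input read were 0.759 (95% interval 0.610 to 0.942) in control and 2.23 (1.78 to 2.80) after MA. Relative to the median peak this was a log2 change of 0.65 (0.19 to 1.11), or 1.57-fold, and it was the only Wnt peak past the threshold. This change was at percentile 74.6 of all peaks, and among the 670 peaks with 500 reads or more, as here, 13.9% were past the threshold in the same direction. Input reads at this peak had a log2 change of -0.34 (-0.68 to 0.00125), which was within 1.5-fold. The study lists Tcf7l2 among genes altered by MA in both expression and m6A methylation. That result came from the authors' own comparisons, which were not used here, and input reads of 1 peak do not measure the whole transcript.

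Fzd7 was the most abundant Frizzled transcript, and its peak over the start codon held 99 input and 89 IP reads in control, and 61 input and 123 IP reads after MA. The IP reads per input read were 0.899 (0.667 to 1.21) in control and 2.02 (1.47 to 2.79) after MA. The log2 change relative to the median peak was 0.26 (-0.37 to 0.90). For input reads it was -0.23 (-0.72 to 0.24), and both intervals included no change.

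The Lgr4 peak in the 5′ untranslated region held 136 input and 141 IP reads in control, and 90 input and 155 IP reads after MA. Its 1.04 IP reads per input read in control (0.813 to 1.32) and 1.72 after MA (1.32 to 2.26) gave a log2 change of -0.17 (-0.70 to 0.36) relative to the median peak. The change of its input reads was -0.13 (-0.53 to 0.26). Neither change could be told from that of the median peak at this depth.

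The remaining receptors had few reads. The Fzd5 peak held 27 input and 31 IP reads in control, and 26 input and 44 IP reads after MA, with a log2 change of -0.35 (-1.45 to 0.76) in IP reads per input read and of 0.41 (-0.42 to 1.24) in input reads. The Fzd3 peak, far down its long 3′ untranslated region, held 12 input and 19 IP reads in control, and 18 input and 38 IP reads after MA. Its log2 change was -0.49 (-1.97 to 0.96) in IP reads per input read. Fzd3, a receptor best known for planar cell polarity and axon guidance, had the only peak of the 5 that was past 1.5-fold in input reads, with a log2 change of 1.03 (-0.08 to 2.24). Its interval included no change, and 22.1% of the 417 peaks with under 100 reads were past the threshold in that direction. In IP reads per input read, the intervals of the 5 Wnt peaks overlapped each other.

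**Figure D3:**
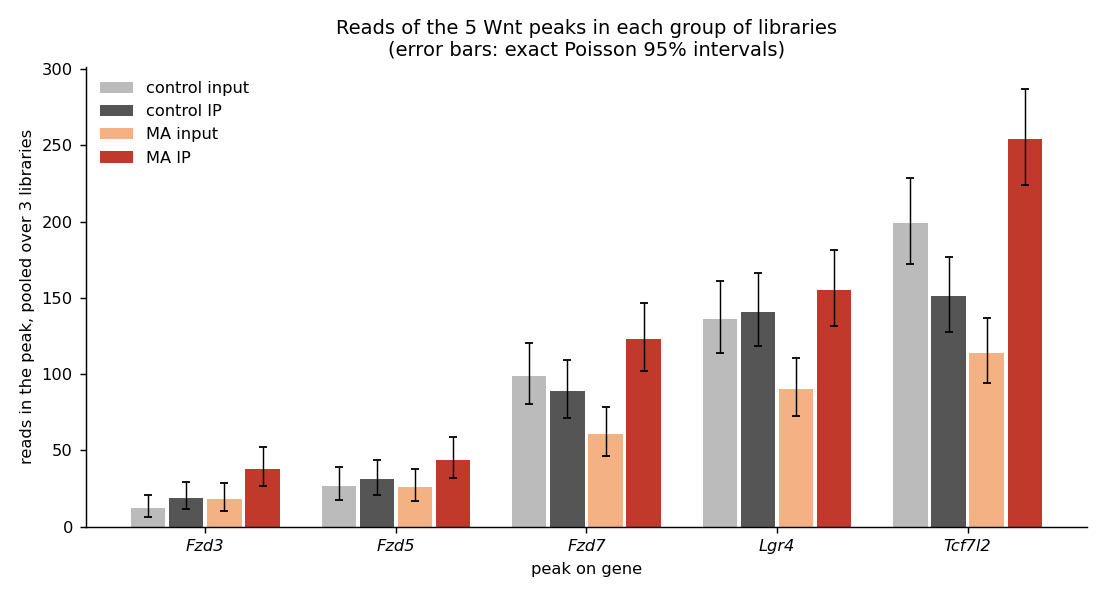
Reads of each Wnt peak in the 4 groups of libraries, pooled over 3 libraries each and not scaled for library size; error bars are exact Poisson 95% intervals. In Tcf7l2 the MA IP bar (254) stands above the control IP bar (151) while the MA input bar (114) is below the control input bar (199).

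**Figure D4:**
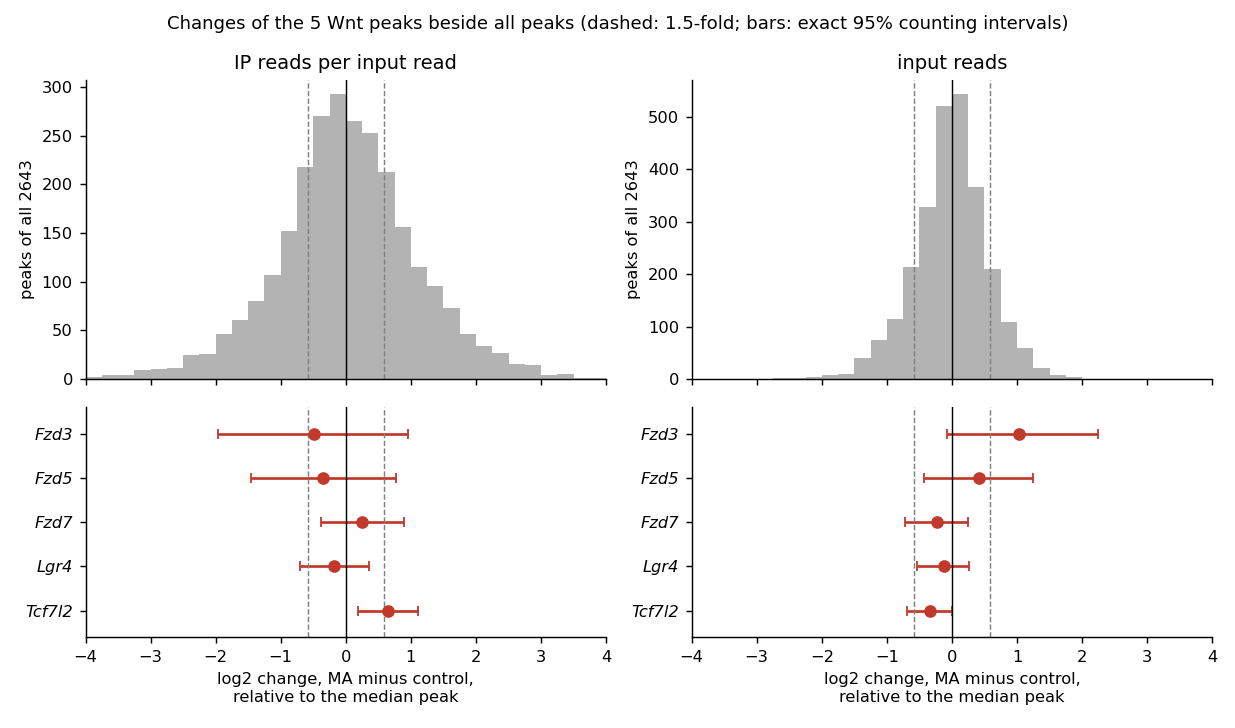
Log2 changes from control to MA relative to the median peak, in IP reads per input read (left) and in input reads (right), for all 2643 peaks as histograms drawn to 4 on either side of 0 (7 peaks lie outside on the left) and for the 5 Wnt peaks as points with exact 95% counting intervals; dashed lines mark 1.5-fold. Only Tcf7l2, at 0.65, has a left interval clear of 0, and every other interval spans 0.

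Among the 61 other pathway genes, 14 had 21 peaks. In IP reads per input read, 9 of these peaks (42.9%) were past 1.5-fold higher after MA and 8 (38.1%) were lower, beside 27.6% and 25.7% of all peaks. The interval excluded no change in 14 of the peaks past 1.5-fold and included it in the rest, such as the Vegfa peak at -0.60 (-2.21 to 1.18). Peaks of a single gene did not always move together. In Gsk3a, the relative of Gsk3b, the peak at chr7:25237493-25237617 had a log2 change of 1.13 (0.51 to 1.78), with 120 input and 78 IP reads in control and 57 and 153 after MA. Its other peak, at chr7:25228559-25228658, had -0.66 (-1.15 to -0.18), with 144 input and 154 IP reads in control and 129 and 163 after MA. Tle4 encodes a co-repressor that binds TCF factors, and both of its peaks were higher. The peak at chr19:14454822-14454896, with 82 reads over the 4 groups, had 1.91 (0.35 to 3.81). Close beside it, chr19:14454972-14464314 was a single block of 9343 bases with 219 reads and had 0.85 (0.0052 to 1.74). In contrast, both peaks of the planar polarity gene Prickle2 were lower, at -2.06 (-3.07 to -1.08) and -1.23 (-2.18 to -0.28). The target gene Myc, with the most reads of the list, had -0.81 (-1.08 to -0.54). The Dvl2 peak had the largest value of the list, 3.38 (1.40 to 5.93), from 15 input and 7 IP reads in control and 4 and 42 after MA.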

How the data were processed

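Libraries of input and anti-m6A IP RNA (3 in each of 4 groups) came from HT22 cells and a stranded kit with molecular identifiers. In the authors' processing, fastp trimmed the reads, HISAT2 placed them on mm10, StringTie quantified genes, DESeq2 compared groups and exomePeak2 called peaks; versions are not given in the sources used here. Base means, as deposited, are a normalized signal: counts divided by size factors and averaged across libraries, without a statement of which ones. Peak values, as deposited, are counts of reads, 1 number for the 3 libraries of a group. Both tables also hold the authors' own comparisons (fold changes, their errors, test statistics, p-values, and IP to input ratios), which were not used here. The number of unused columns with values of single samples was 0.

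Changes were computed from the counts after adding 0.5 to each, relative to the median peak. Intervals are exact, conditional for the ratio of ratios and Clopper-Pearson for ratios of reads, at 95%, and cover counting error only. The calculation was tested on simulated Poisson counts with planted changes larger than that of the Tcf7l2 peak. The simulation had no spread between replicates, so it does not show how reliable a change near 1.5-fold is. Summed over all peaks, input held 288659 reads in control and 214778 after MA, and IP held 267002 in control and 359889 after MA; the median peak had 231 reads over the 4 groups. Exon lengths, from GENCODE M21 for GRCm38 (the mm10 assembly), were found for 55 of 56 genes and for 15739 of 16178 genes above 0. Sequences were read from GRCm38.p6. Each peak was placed on the coding transcript with the longest coding sequence that contains it. The software was scipy 1.17.1, pandas 2.3.3, numpy 2.4.6 and matplotlib 3.10.9 under Python 3.11.15. The genes and the pathway and marker lists were chosen with earlier results of these data known. Every Wnt gene with a peak is named, as are the 3 highest per kb of each role and those listed at 0; other genes named were chosen after their values were seen. Alternatives were another scaling, added count, fold threshold, read minimum, gene length and background.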

Additional observations from a re-analysis of the deposited data

How the results depend on the processing

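No paired analysis was possible because the columns pool the replicates of each group and carry no replicate number, and for the same reason no replicate could be left out. Of the 5 Wnt peaks, the number past the threshold in IP reads per input read was 1 at 1.5-fold, 3 at 1.2-fold and 0 at 2-fold. In input reads it was 1 at 1.5-fold, 3 at 1.2-fold, 0 with peaks of at least 100 reads only, which removes Fzd3, and 0 when the interval also had to exclude no change. Scaling by total reads and adding 1 read in place of 0.5 left both numbers at 1, and none of 20 values of single peaks changed sign under either. Total scaling moved the median change of all peaks by 0.05 on the log2 scale and gave 770 peaks higher and 636 lower in IP reads per input read, against 730 and 680. The Wnt genes at or above the median level numbered 11, also with the longest transcript as length, and 8 against genes with a base mean of at least 10. The spread between replicates is not known for any value.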
